A study of Homo sapiens with 6 samples.

Results

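The genes described here are the aryl hydrocarbon receptor (AHR) and 9 cytochrome P450 enzymes, CYP1A1, CYP1B1, CYP2J2, CYP2R1, CYP2S1, CYP2U1, CYP3A5, CYP3A7 and CYP24A1. They were picked by name, without use of any measured value in the rule, and each had 1 row among the 27452 rows of the count table, so all 10 were found. Gene expression had been measured by RNA sequencing of total RNA in cells labelled HepG2, a long-established line from a human liver tumour that was grown in DMEM with serum and antibiotics. One group, of 3 libraries, carried a control short hairpin RNA (shRNA) and the other, also of 3, an shRNA against STAT3, a transcription factor that cytokine receptors activate through Janus kinases. Both groups therefore consist of lines made by introducing a hairpin RNA. The labels do not say whether a line is 1 clone, which hairpins were used, or whether libraries 1 to 3 came from separate cultures, and the p-values given here reflect nothing beyond the spread among these 6 libraries, which may be a technical one.

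Cytochrome P450 enzymes are haem proteins that insert oxygen into drugs, pollutants, steroids, fatty acids and vitamins, with electrons passed on by P450 oxidoreductase. AHR is a receptor of the cytoplasm that binds planar aromatic compounds, moves to the nucleus, pairs with ARNT and binds DNA at sites with the core GCGTG. CYP1A1 and CYP1B1 are its classical target genes, and in the liver the CYP3A genes are known to be controlled by nuclear receptors and liver transcription factors.

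In CPM, the unit of level used here (counts scaled so that libraries of different depth compare), STAT3 itself stood at 261.5, 246.7 and 246.3 with the control hairpin. With the STAT3 hairpin it stood at 34.8, 35.8 and 36.2 CPM. The log2 ratio of the groups was -2.82 ± 0.0845 (SE; edgeR quasi-likelihood test, adjusted p = 2.19e-07), and all 6 libraries fitted their labels in this gene. Library totals were 17408543 to 25862027 counts. A gene without a count could still lie at up to 0.113 to 0.175 CPM, taking 3 counts as the floor and covering counting error only. Of 14999 genes tested, 1408 (9.39%) were called higher and 1219 (8.13%) lower at a false discovery rate (FDR) of 0.05, or 17.5% in either direction, and 18.5% had every STAT3 shRNA library above every control library. With library totals as the only scaling, 68.7% of called genes were higher, against 53.6% here. The labelled cell type was poorly matched by its markers. Of 25 hepatocyte markers 15 had a row and 4 were tested, and the albumin gene ALB reached 2, 0 and 0 counts with the control hairpin and 0, 0 and 3 with the STAT3 hairpin. In bulk RNA, fewer cells that express a gene and less RNA per cell cannot be told apart.

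AHR and 4 of the P450 genes, CYP1A1, CYP1B1, CYP2S1 and CYP3A7, were higher in the STAT3 shRNA libraries. The fitted rises of AHR, CYP1A1, CYP1B1 and CYP2S1 were 1.67-fold, 1.95-fold, 1.54-fold and 1.44-fold. CYP3A7 went from no count in any control library to at least 9.23-fold above the floor. CYP2U1, CYP3A5 and CYP2R1 did not pass the test, and CYP2J2 and CYP24A1 had too few counts to be tested. The 8 tested members thus held 5 calls higher beside a background of 9.39%, and CYP3A7 passed the filter on low counts only through the STAT3 shRNA group. Without it, 4 of 7 were called higher. None of the 8 was called lower, none was lower at an unadjusted p under 0.05, and DESeq2 and limma-voom called none lower either. The median log2 fold change was 0.669 over the 8 tested members and -0.00673 over all tested genes. Without CYP3A7, the middle of the 7 values was that of CYP1B1, 0.622. The count of 5 fell to 2 when control library 2 or STAT3 shRNA library 1 was left out, and to 3 when STAT3 shRNA library 2 or 3 was. The 2 calls that every fit made were CYP1A1 and CYP3A7.

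**Figure D1:**
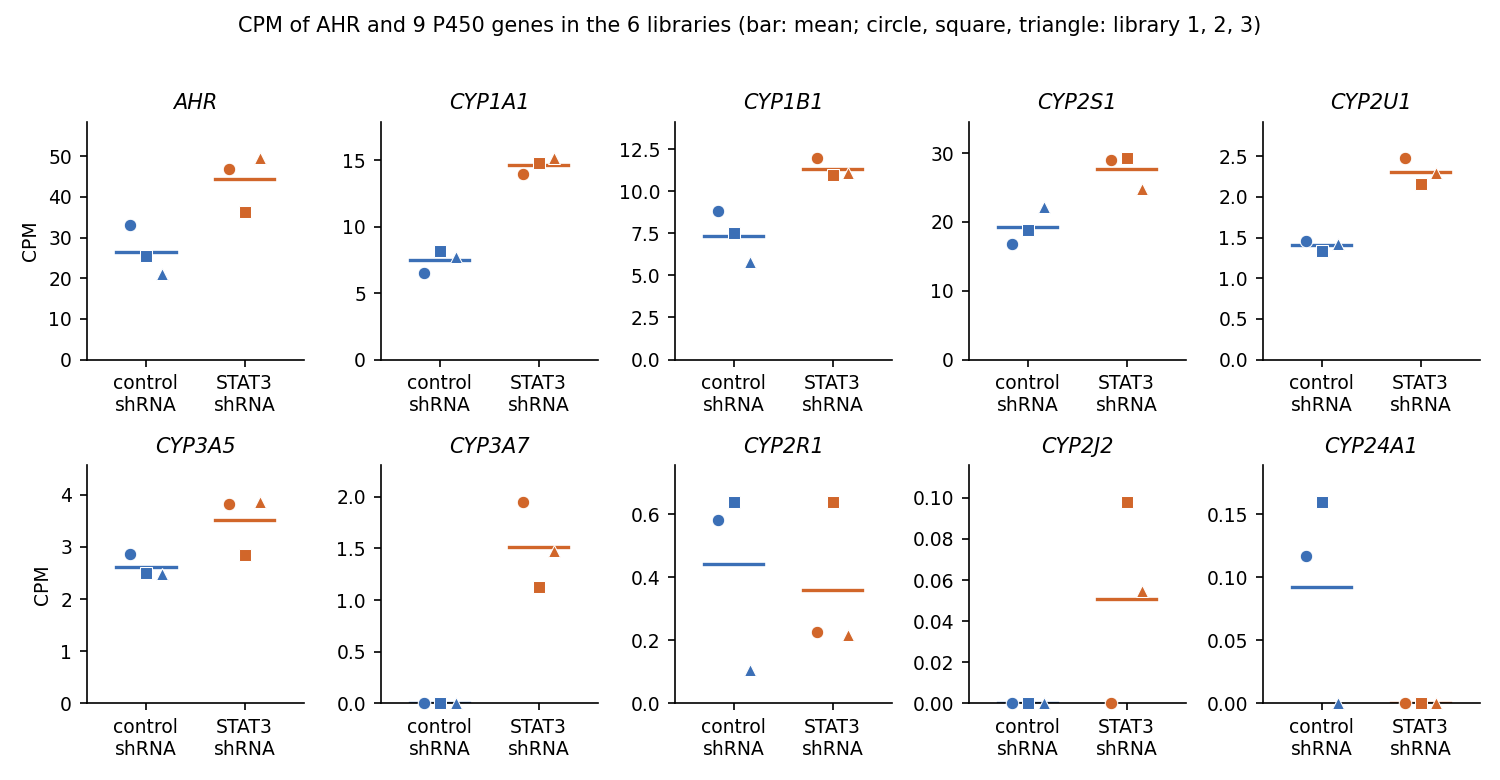
CPM of AHR and the 9 P450 genes (y axis, each panel with its own linear scale from 0) in the 3 control shRNA libraries (blue) and the 3 STAT3 shRNA libraries (orange); circle, square and triangle are libraries 1, 2 and 3 and the bar is the mean. The groups do not overlap in AHR, CYP1A1, CYP1B1, CYP2S1, CYP2U1 and CYP3A7, while CYP2R1, CYP2J2 and CYP24A1 stay below 0.7 CPM in every library. Of all tested genes, 18.5% had every STAT3 shRNA library above every control library. CYP3A7 was among the tested genes only through its STAT3 shRNA counts.

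Promoter sequence was taken from RefSeq (GRCh38.p14), in windows from 250 bases before to 50 bases after each gene's start. Windows matched 8 of the 10 genes by symbol. Below are the 250 bases before the start of 4 genes on the minus strand, written 5′ to 3′ as transcribed. CYP1A1 and CYP2J2 are shown because GCGTG, in capitals, lies there. CYP3A5 and CYP3A7 are shown because they are adjacent and similar, yet only CYP3A7 was without a count in the control libraries; neither stretch holds the core.
CYP1A1, chr15:74725529-74725778: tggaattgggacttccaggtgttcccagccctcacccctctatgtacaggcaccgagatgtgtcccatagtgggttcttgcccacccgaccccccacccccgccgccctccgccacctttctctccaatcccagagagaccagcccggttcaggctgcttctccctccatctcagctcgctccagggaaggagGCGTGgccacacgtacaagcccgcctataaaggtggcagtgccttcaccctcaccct
CYP2J2, chr1:59926774-59927023: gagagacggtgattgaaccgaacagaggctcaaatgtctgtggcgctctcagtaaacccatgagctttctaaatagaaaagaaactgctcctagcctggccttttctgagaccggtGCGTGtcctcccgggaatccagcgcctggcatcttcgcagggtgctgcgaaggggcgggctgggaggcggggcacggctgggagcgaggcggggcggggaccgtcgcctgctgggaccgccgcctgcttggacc
CYP3A5, chr7:99679997-99680246: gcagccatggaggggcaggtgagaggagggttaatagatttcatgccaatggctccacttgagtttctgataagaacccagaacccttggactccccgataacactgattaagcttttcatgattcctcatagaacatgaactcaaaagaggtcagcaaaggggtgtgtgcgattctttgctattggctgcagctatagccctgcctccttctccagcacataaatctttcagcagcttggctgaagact
CYP3A7, chr7:99735197-99735446: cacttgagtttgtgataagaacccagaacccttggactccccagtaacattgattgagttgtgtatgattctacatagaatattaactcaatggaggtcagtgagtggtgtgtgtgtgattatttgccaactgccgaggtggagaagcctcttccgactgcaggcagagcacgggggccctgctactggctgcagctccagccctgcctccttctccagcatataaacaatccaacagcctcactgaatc
GCGTG was searched on both strands. In the window of CYP1A1 it lay 57 to 53 bases before the start, and in CYP2J2 134 to 130 bases before it. AHR and CYP2U1 held it just after the start, at bases 37 to 41 and 39 to 43. These are 4 of the 10 windows of the 8 matched genes, of which CYP2R1 had 3 without the core, beside 36.5% of 34943 promoter windows of the same 300 bases. The STAT-type motif TTCNNNGAA, which is its own reverse complement, was in none of the 8, and 7.66% of all windows held it. A match is a run of letters and not a measured binding site. CYP2J2, with the core, had no more than 2 counts in any library, which does not show whether the site is bound. In a global alignment the stretches of CYP3A5 and CYP3A7 had 159 identical and 34 mismatched bases, or 82.4% identity over the aligned bases, with 114 bases in gaps.

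AHR (ENSG00000106546.14, GENCODE 29 on GRCh38: chromosome 7, 16916359 to 17346152, plus strand), the receptor, had 33.1, 25.4 and 21.0 CPM across control libraries 1 to 3, against 46.9, 36.4 and 49.6 CPM with the STAT3 shRNA. The lowest STAT3 shRNA library stood above the highest control library. The group means were 26.5 ± 6.12 and 44.3 ± 6.98 CPM (SD, n = 3 each), a log2 fold change of 0.74 ± 0.178 (SE; 95% interval 0.34 to 1.15; edgeR quasi-likelihood test, adjusted p = 0.0198). AHR was no longer called once control library 2 (0.71, adjusted p = 0.0912 in edgeR), STAT3 shRNA library 1 (0.70, 0.0841) or STAT3 shRNA library 3 (0.66, 0.0922) was left out. In GENCODE 29, 28.8% of the 50-base stretches of AHR transcripts also occur in the overlapping gene model AC019117.2. That gene model has no row in the count table. The AHR count could depend on how such reads were assigned, which is not given in the sources used here.

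AHR was also read beside a property of the libraries. For each library the median centred log2 CPM of the genes with the longest transcripts (from 5187 bases), minus that of the genes with the shortest (up to 2158 bases), was 0.176, -0.0631 and -0.270 in control libraries 1 to 3 and 0.0917, -0.0618 and 0.0669 in STAT3 shRNA libraries 1 to 3. Among the control libraries AHR was highest in library 1 and lowest in library 3, as was this measure. Within the STAT3 shRNA group both were lowest in library 2, but AHR was highest in library 3 and the measure in library 1. In the control libraries CYP1B1 had the same order as AHR, CYP2S1 the reverse order, and CYP1A1 neither. The groups overlapped in the length measure. Its part in the differences of AHR and of the other members was not tested. The measure was chosen after the data were seen.

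**Figure D2:**
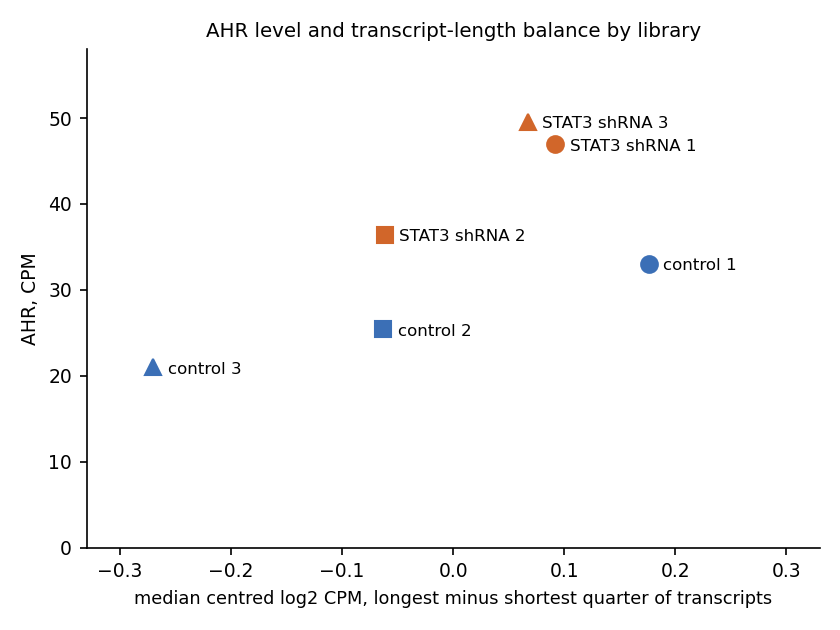
AHR in CPM (y axis) against the balance of long and short transcripts (x axis, median centred log2 CPM of genes from 5187 bases minus that of genes up to 2158 bases) in the 6 libraries; blue is control shRNA and orange STAT3 shRNA. The control libraries run from -0.270 to 0.176 and the STAT3 shRNA libraries, all higher in AHR, lie between -0.0618 and 0.0917.

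The protein-coding genes most like AHR across the 6 libraries were EYA3, KATNAL1 and ZNF33B. Likeness was the root mean square difference of centred log2 CPM over the 6 libraries, and 12318 genes were compared. It was 0.0534, 0.0612 and 0.0675 for these 3. Each of them was, like AHR, lowest in control library 3 and highest in STAT3 shRNA library 3, which largely follows from how they were picked. For CYP1A1 the most alike were NXN (0.0457), LRRC75A (0.0661) and the ferritin heavy chain gene FTH1 (0.0686).

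CYP1A1 (ENSG00000140465.14, chromosome 15, 74719542 to 74725610, minus strand in the same annotation), which oxidises polycyclic aromatic hydrocarbons, measured 6.53, 8.17 and 7.75 CPM with the control hairpin, against 13.9, 14.8 and 15.2 CPM with the STAT3 hairpin. Both groups were tight and far apart. That gave means of 7.48 ± 0.849 and 14.6 ± 0.622 CPM (SD, n = 3 each), a log2 fold change of 0.96 ± 0.132 (SE; 95% interval 0.67 to 1.26; edgeR quasi-likelihood test, adjusted p = 0.00112). Over all 15 alternatives it ranged from 0.89 to 1.06 and stayed called. No 50-base stretch of its transcripts occurs in another GENCODE 29 gene.

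CYP1B1 (ENSG00000138061.12, chromosome 2, 38066973 to 38109902, minus strand), which hydroxylates estradiol and aromatic hydrocarbons, had 8.81, 7.53 and 5.80 CPM across control libraries 1 to 3, against 12.0, 11.0 and 11.1 CPM with the STAT3 shRNA. The control libraries spread more than the STAT3 shRNA libraries, and the groups did not overlap. On average it went from 7.38 ± 1.51 up to 11.3 ± 0.568 CPM (SD, n = 3 each), a log2 fold change of 0.62 ± 0.167 (SE; 95% interval 0.24 to 0.999; edgeR quasi-likelihood test, adjusted p = 0.0322). It was not called when control library 2, control library 3 or any 1 of the STAT3 shRNA libraries was left out, with log2 fold changes of 0.48 to 0.65 and adjusted p of 0.0560 to 0.131 in edgeR. The antisense gene CYP1B1-AS1 overlaps it on the other strand and had 50, 47 and 27 counts with the control hairpin and 47, 35 and 36 with the STAT3 hairpin (log2 fold change -0.33 ± 0.303; edgeR, adjusted p = 0.501). Of the 50-base stretches of CYP1B1 transcripts 8.71% occur, on either strand, in CYP1B1-AS1. Reads of those shared stretches cannot be told apart without a known strand setting. With all counts of both genes summed, a fit added after the data were seen, the change was 0.45 (edgeR, adjusted p = 0.115). The count ratio of CYP1A1 to CYP1B1 was 0.742, 1.09 and 1.34 with the control hairpin and 1.16, 1.35 and 1.37 with the STAT3 hairpin, and these ranges overlapped.

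CYP2S1 (ENSG00000167600.14, chromosome 19, 41193049 to 41207539, plus strand), an enzyme found mostly outside the liver that AHR ligands are also known to induce, measured 16.7, 18.8 and 22.3 CPM with the control hairpin, against 29.01, 29.3 and 24.9 CPM with the STAT3 hairpin. Control library 3 and STAT3 shRNA library 3 came closest to each other but did not cross. On average it went from 19.3 ± 2.78 up to 27.7 ± 2.49 CPM (SD, n = 3 each), a log2 fold change of 0.52 ± 0.132 (SE; 95% interval 0.23 to 0.82; edgeR quasi-likelihood test, adjusted p = 0.0244). Without control library 2, STAT3 shRNA library 1 or STAT3 shRNA library 2 it was not called, with adjusted p of 0.106, 0.107 and 0.0725 in edgeR. CYP2S1 gave the largest part of the counts of these 9 P450 genes, not scaled for length, at 45.1%, 48.1% and 55.9% with the control hairpin and 45.7%, 47.3% and 42.1% with the STAT3 hairpin. Summed over the 9 P450 genes, the level was 37.1, 39.2 and 39.8 CPM with the control hairpin and 63.4, 61.9 and 59.0 CPM with the STAT3 hairpin.

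CYP3A7 (ENSG00000160870.14, chromosome 7, 99684957 to 99735196, minus strand) encodes the CYP3A enzyme of the fetal liver. It had 0 counts in all 3 control libraries and 52, 23 and 27 counts in STAT3 shRNA libraries 1 to 3, or 1.95, 1.13 and 1.47 CPM. The mean of 1.52 ± 0.414 CPM (SD, n = 3) was at least 9.23-fold higher than the control group, with the floor set at 3 counts per control library (0.164 CPM on average), and the adjusted p was 0.00084 (edgeR quasi-likelihood test). Its fitted log2 fold change depends on the prior count and is not used. In all 16 alternatives it stayed called. It passed the filter on low counts only through the STAT3 shRNA group, so these calls add no separate support. Of its 50-base stretches 38.6% occur in the readthrough gene CYP3A7-CYP3A51P and 4.66% in CYP3A4. CYP3A7-CYP3A51P had 2, 0 and 0 counts with the control hairpin and 0, 12 and 0 with the STAT3 hairpin, and CYP3A4, named after its values were seen, had 0, 0 and 0 and then 6, 6 and 2. How reads shared within this family were assigned is not given in the sources used here, so its counts are uncertain in that respect.

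CYP3A5 (ENSG00000106258.15, chromosome 7, 99648194 to 99680026, minus strand), the adjacent gene for a CYP3A enzyme of the adult liver and gut, had 2.86, 2.51 and 2.48 CPM across control libraries 1 to 3, against 3.83, 2.85 and 3.87 CPM with the STAT3 shRNA. STAT3 shRNA library 2 fell just below control library 1, so the groups overlapped. The log2 fold change was 0.43 ± 0.214 (SE; 95% interval -0.06 to 0.91; edgeR quasi-likelihood test, adjusted p = 0.209), which leaves room for no change and for a rise as large as that of AHR. In the STAT3 shRNA libraries the ratio of CYP3A5 to CYP3A7 in counts, not scaled for length, was 1.96, 2.52 and 2.63. That the 2 CYP3A genes differ from each other in their change was not tested.

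CYP2U1 (ENSG00000155016.18, chromosome 4, 107931369 to 107953457, plus strand), a hydroxylase of long-chain fatty acids, measured 1.46, 1.34 and 1.42 CPM with the control hairpin, against 2.48, 2.16 and 2.29 CPM with the STAT3 hairpin. The groups did not overlap, as in 18.5% of all tested genes, but the call was missed. Its log2 fold change was 0.72 ± 0.239 (SE; 95% interval 0.18 to 1.26; edgeR quasi-likelihood test, unadjusted p = 0.0147, adjusted p = 0.0709). It was called only with library totals as the scaling (0.81, edgeR adjusted p = 0.0432). CYP2J2 (ENSG00000134716.11), which makes epoxides from arachidonic acid, had 0 counts in every control library and 0, 2 and 1 with the STAT3 hairpin. These are at or under the floor, and no fold was computed.

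The vitamin D enzymes were near the limit of detection. CYP2R1 (ENSG00000186104.10), a 25-hydroxylase of vitamin D, had 10, 12 and 2 counts with the control hairpin and 6, 13 and 4 with the STAT3 hairpin. Both groups had a library under 5 counts, and the log2 fold change of -0.30 ± 0.699 (SE; 95% interval -1.88 to 1.28; edgeR quasi-likelihood test, adjusted p = 0.810) could not show a change at this depth. CYP24A1 (ENSG00000019186.10), the 24-hydroxylase that inactivates vitamin D, had 2, 3 and 0 counts with the control hairpin and 0 in each STAT3 shRNA library, all at or under the floor.

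**Figure D3:**
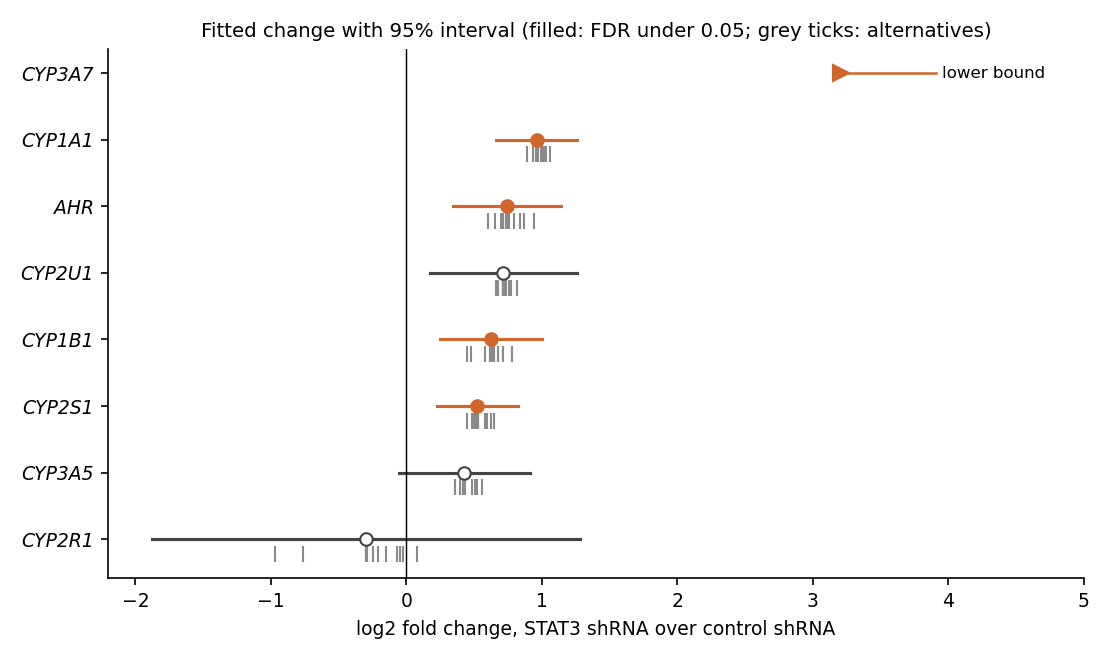
Fitted log2 fold change (x axis, STAT3 shRNA over control shRNA) of the 8 tested genes with its 95% interval; filled symbols passed the FDR of 0.05, grey ticks are the fits under other settings, and the triangle is the lower bound of CYP3A7, whose control libraries had no count. CYP1A1, AHR, CYP1B1 and CYP2S1 lie between 0.52 and 0.96, CYP2U1 and CYP3A5 are not called, and CYP2R1 has an interval from -1.88 to 1.28.

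Levels of different genes can be compared only per length. In CPM per kilobase of annotated exon, CYP2S1 was highest in the control libraries, at 6.71 ± 0.967 (SD, n = 3). AHR followed at 3.28 ± 0.757, CYP1A1 at 2.18 ± 0.247, CYP1B1 at 1.23 ± 0.251, CYP3A5 at 0.387 ± 0.0312 and CYP2U1 at 0.231 ± 0.0105. Each of these 6 lay above the next gene in every control library. Below them, CYP2R1 at 0.0981 and CYP24A1 at 0.0232 CPM per kilobase overlapped, and CYP2J2 and CYP3A7 were at 0. The STAT3 shRNA libraries had the same first 4, at 9.65 ± 0.865 for CYP2S1, 5.48 ± 0.863 for AHR, 4.26 ± 0.181 for CYP1A1 and 1.89 ± 0.0945 for CYP1B1. There CYP3A5 (0.520 ± 0.0858), CYP3A7 (0.399 ± 0.109) and CYP2U1 (0.379 ± 0.0264) were neighbours in the order that overlapped over libraries. The order was the same with the length of the longest transcript.

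Genes around AHR were read from lists of its partners and targets. For these and the later lists, the shares over all tested genes were 9.39% called higher and 8.13% lower. Of 13 tested partners and repressors of AHR, none was called higher and 1 lower by edgeR, with a list median log2 fold change of 0.06 (-0.0277 to 0.155 over the other fits). At an unadjusted p under 0.05 there were 2 higher and 2 lower, DESeq2 called 1 and 2, and limma-voom none and 1. The heterodimer partner ARNT lay at 59.5 and 64.7 CPM in the control and STAT3 shRNA means (0.12 ± 0.127; edgeR, adjusted p = 0.556). The gene called lower was the corepressor NRIP1, from 25.3 to 16.7 CPM (-0.59 ± 0.146; edgeR, adjusted p = 0.0218), and it was called in 10 of 15 alternatives. SRC and TIPARP were called higher with upper-quartile scaling or library totals, which gave 2 calls higher. The repressor AHRR stands on 2 rows. The row whose identifier the names table pairs with it, ENSG00000063438.17, lay at 8.18 and 4.56 CPM (-0.84 ± 0.295; edgeR, adjusted p = 0.0822), and another row of that name, ENSG00000286169.1, at 497.5 and 273.6 CPM (-0.86 ± 0.102; edgeR, adjusted p = 0.000513). Which of them holds the reads of the AHRR protein is uncertain. The counts of this list and of the AHR target list use the first row. The second row, called lower, is in neither count.

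Target genes of AHR outside the P450 family went both ways. Of 17 genes listed 14 had a row and 9 were tested, with 2 called higher, 3 lower and a median log2 fold change of -0.46. Higher were PTGS2, the inducible cyclooxygenase, from 8.69 to 46.1 CPM (2.41 ± 0.169; edgeR, adjusted p = 2.82e-05), and the aldehyde dehydrogenase gene ALDH3A1, from 54.2 to 125.3 CPM (1.21 ± 0.147; edgeR, adjusted p = 0.000588). Lower were the efflux pump gene ABCG2, from 61.8 to 23.2 CPM (-1.41 ± 0.103; edgeR, adjusted p = 3.59e-05), the amino acid transporter gene SLC7A5, at -0.52 ± 0.0831 (edgeR, adjusted p = 0.0025), and the quinone reductase gene NQO1, at -0.26 ± 0.0738 (edgeR, adjusted p = 0.0374). NQO1 was called in 7 of 15 alternatives, and the count lower ranged from 2 to 5, reaching 5 with DESeq2. TIPARP, which AHR ligands induce, was not called here (0.30 ± 0.104; edgeR, adjusted p = 0.0809).

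**Figure D4:**
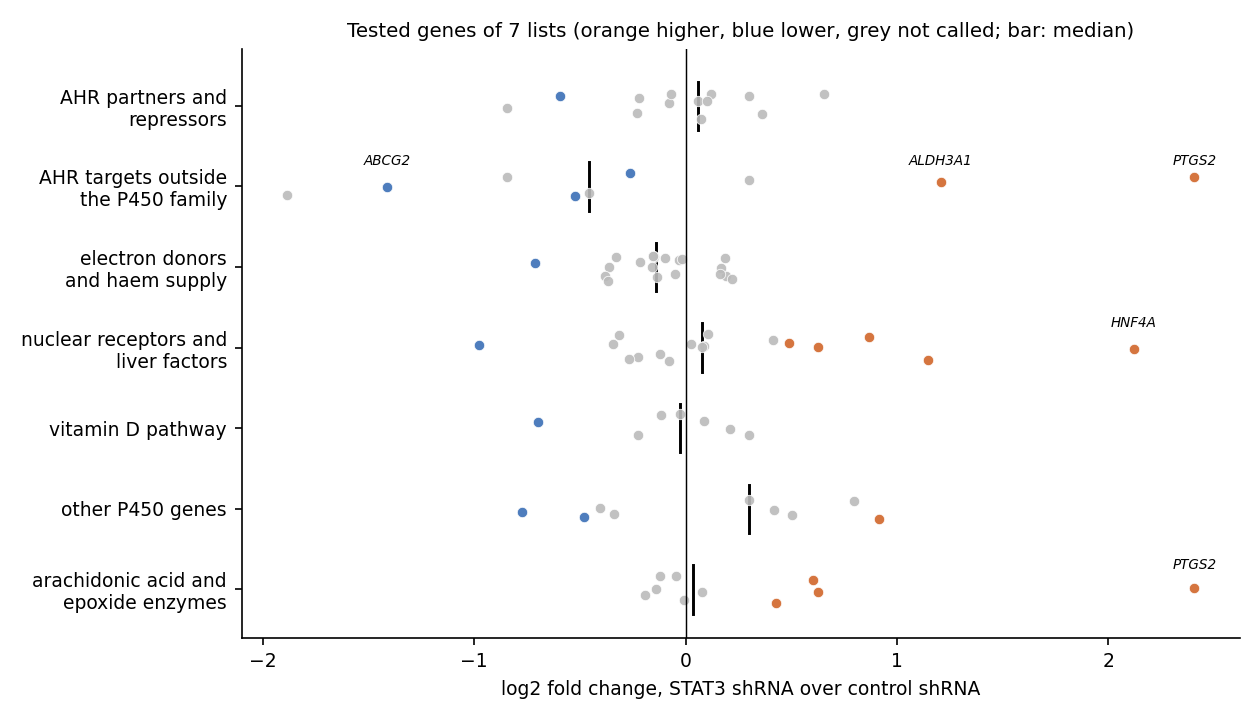
Log2 fold change (x axis, STAT3 shRNA over control shRNA) of each tested gene in 7 lists around AHR and the P450 enzymes; orange points were called higher, blue lower and grey not called, the bar is the list's median, and called genes beyond 1.2 in size are labelled. Called genes lie on both sides of 0 among the AHR targets (2 higher, 3 lower), and NR5A2, without a count in the control libraries, is not drawn.

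POR, the oxidoreductase that serves the microsomal P450 enzymes, fell from 100.3 to 61.3 CPM (-0.71 ± 0.0937; edgeR, adjusted p = 0.000887). It was the 1 gene called among 20 tested electron donors and haem genes, and the list median was -0.14 (-0.164 to -0.0313 over the other fits). DESeq2 and limma-voom called POR alone as well, and at an unadjusted p under 0.05 there were 1 higher and 5 lower. Without control library 1 the list had 5 calls lower. ALAS1, which starts haem synthesis, lay at 76.0 and 86.8 CPM (0.19 ± 0.0837; edgeR, adjusted p = 0.151).

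Among nuclear receptors and liver factors known to act on P450 genes, 18 of 27 were tested, with 6 called higher, 1 lower and a median of 0.0815 (0.0144 to 0.178 over the other fits). The liver factor HNF4A rose from 1.51 to 6.58 CPM (2.12 ± 0.240; edgeR, adjusted p = 0.000406). NR5A2, a nuclear receptor of bile acid and steroid genes, had 0 counts in each control library, but 74, 57 and 30 with the STAT3 hairpin, at least 14.6-fold higher than the floor of 3 counts per control library (edgeR, adjusted p = 0.000432). NR5A2 passed the filter on low counts only through the STAT3 shRNA group, and without it 5 of 17 were called higher. Also called were NR2F1 at 0.63, PPARGC1A at 0.87, FOXA1 at 0.49 and, lower, CEBPD at -0.97. Without control library 1 there were 3 calls lower, and FOXA1 was lost without control library 2 or STAT3 shRNA library 3. NR1I2, the pregnane X receptor that drives CYP3A genes in the liver, had at most 3 counts in any library.

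Enzymes that act on the same substrates were read from further lists. In the vitamin D list 7 genes were tested and 1 was called in each tool, DHCR7, which draws on the precursor of vitamin D and fell from 221.8 to 136.7 CPM (-0.70 ± 0.0842; edgeR, adjusted p = 0.000561). In the list of arachidonic acid and epoxide enzymes 10 genes were tested, 4 were called higher and none lower, also by DESeq2 and limma-voom, none was lower at an unadjusted p under 0.05, and the median was 0.03 (0.00932 to 0.328 over the other fits). Beside PTGS2, these were PLA2G4A, which frees arachidonic acid (0.60 ± 0.107; edgeR, adjusted p = 0.00458), PTGS1 (0.63 ± 0.122; edgeR, adjusted p = 0.00739) and PTGES (0.43 ± 0.0887; edgeR, adjusted p = 0.0102). Without control library 2 or STAT3 shRNA library 1 PTGES was lost, which left 3 calls higher.

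Most other P450 genes were near 0. Of 48 listed 36 had a row, 16 of those had at most 3 counts in every library, and 9 were tested. The steroid side-chain cleavage enzyme CYP11A1 rose from 10.5 to 19.8 CPM (0.91 ± 0.128; edgeR, adjusted p = 0.00123). The retinoic acid hydroxylase CYP26B1 fell from 22.4 to 13.1 CPM (-0.77 ± 0.121; edgeR, adjusted p = 0.00225), and the sterol demethylase CYP51A1 fell from 226.9 to 162.4 CPM (-0.48 ± 0.106; edgeR, adjusted p = 0.0131). The list median was 0.302, and over the other fits it ran from -0.0146, with a filter of 1 CPM in 3 libraries, to 0.414, without control library 3. It was 0.123 without control library 1 and 0.0965 without STAT3 shRNA library 1. The count lower was 1 without control library 2 or STAT3 shRNA library 1, where CYP51A1 was lost, and the count higher was 2 with upper-quartile scaling or library totals.

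Markers of other cell types were read beside these genes. Summed hepatocyte markers ran from 3930 to 5421 CPM in the control and 2858 to 3173 CPM in the STAT3 shRNA libraries, nearly all of it CPS1, and 8 of the 15 with a row, ALB, APOA1 and APOA2 among them, had at most 3 counts in every library. The intestinal list ran from 1052 to 1421 and from 7.42 to 10.9 CPM, with 1 of its 7 genes with a row tested, ALPI. Fibroblast or stellate markers summed to 56.3 to 65.7 and 42.6 to 45.3 CPM, with 4 of 8 tested. That sum followed COL1A1, from 40.3 to 15.3 CPM, while ACTA2 was called higher (1.07 ± 0.214; edgeR, adjusted p = 0.00868), DCN and PDGFRB were not called, and the list median was 0.313. Endothelial markers summed to 1.48 to 2.24 and 1.39 to 2.29 CPM, with 1 of 7 tested. Blood markers summed to 12.1 to 16.8 and 22.5 to 29.7 CPM, with 2 of 6 tested, mostly CD68, while HBA1 was at 0 and SPI1 had at most 2 counts. The other tested blood marker, HBA2, had 18, 16 and 19 counts with the control hairpin and 65, 35 and 27 with the STAT3 hairpin. It was not called (0.96 ± 0.310; edgeR, adjusted p = 0.0634). The part of all these markers in the differences of AHR and the P450 genes was not tested.

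The change of each member was set beside that of the 5 tested genes on each side of them in GENCODE 29 order. Around CYP1A1 none of 10 neighbours was called by edgeR or DESeq2, 1 was by limma-voom and 2 were higher at an unadjusted p under 0.05, and their log2 fold changes ran from -0.20 to 0.60. Around CYP3A7 none was called by any of the 3 tools or at an unadjusted p under 0.05, with a range of -0.04 to 0.43 that includes CYP3A5. AHR had 2 neighbours called higher, TSPAN13 at 0.39 and HDAC9 at 1.63. CYP2S1 had 2, the receptor kinase gene AXL right next to it at 0.67 and AC011462.1 at 0.51. CYP1B1 had 1, GALM at 0.37, and CYP2U1 had 3, NPNT at 0.36, ETNPPL at 2.12 and COL25A1 at 1.96. The genes that were not called higher had calls nearby as well: HOOK1 (0.48) and KANK4 (-1.81) beside CYP2J2, PLEKHA7 (0.89), OR7E14P (1.77) and SOX6 (-4.56) beside CYP2R1, and ATP9A (-0.44) beside CYP24A1. Several of these calls were lost when a library was left out: TSPAN13, AC011462.1 and OR7E14P were each called in 11 of 15 alternatives, GALM and HOOK1 in 10 of 15, KANK4 in 10 of 14, NPNT in 12 of 15 and ATP9A in 14 of 15. Each of these but KANK4 and ATP9A was lost without STAT3 shRNA library 1 and without control library 2, KANK4 without control library 3, STAT3 shRNA library 1 or STAT3 shRNA library 3, and ATP9A without STAT3 shRNA library 3.

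**Figure D5:**
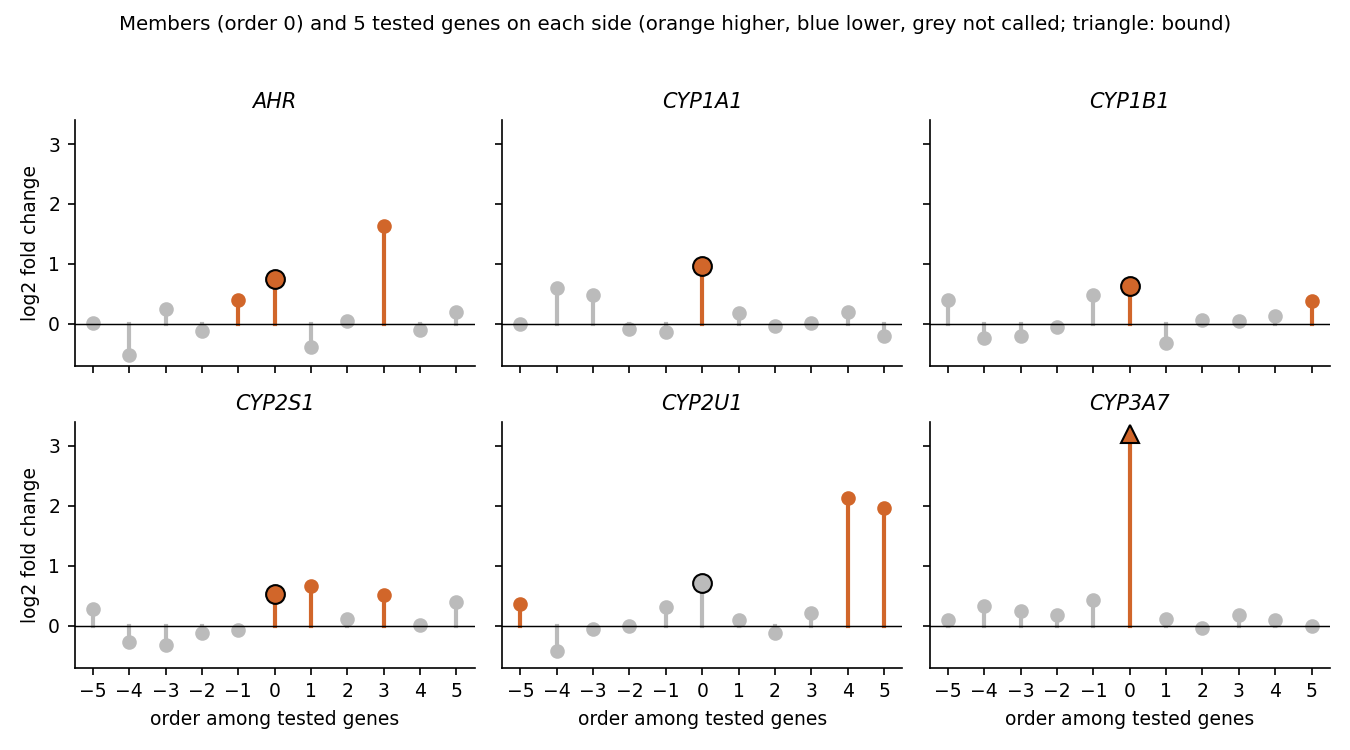
Log2 fold change (y axis, STAT3 shRNA over control shRNA) of 6 members at order 0, outlined, and of the 5 tested genes on each side (x axis, order on the chromosome); orange was called higher, blue lower and grey not called, and the triangle is the lower bound of CYP3A7. No neighbour of CYP1A1 or CYP3A7 is called by edgeR, while AHR and CYP2S1 each have 2 called neighbours.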

How the data were processed

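RNA sequencing of 6 libraries (3 control shRNA, 3 STAT3 shRNA) was analysed from 1 table of whole-number counts per gene as deposited by the authors, whose totals differ between libraries. For its aligner, counting program, strand setting, genome build and annotation, the choice of the authors was not given in the sources used here. The table held 26420 rows with an Ensembl identifier, 25996 of them matched to GENCODE 29, and 1032 rows with other names, which stayed in the fit. Gene coordinates in the text are those of GENCODE 29 on GRCh38.

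The fit used edgeR 4.0.16 under R 4.3.3 (filterByExpr at min.count 10 and min.total.count 15, TMM scaling, robust quasi-likelihood F test with group as the only term, two-sided, Benjamini-Hochberg over 14999 genes, FDR 0.05). The SE is the log2 fold change divided by the square root of F. CPM were computed from the counts with TMM-scaled sizes, and a prior count of 2 was used for likeness. The procedure was tested on simulated data. Alternatives were RLE, upper-quartile and library-total scaling, DESeq2 1.42.0, limma-voom (limma 3.58.1), dispersion without robust estimation, 2 other filters, a replicate block and leaving out each library, 15 in all. A pair of summed counts was added after the data were seen. Figures were drawn with matplotlib 3.10.9.

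The genes and lists were chosen with earlier results of these data known. Named were STAT3, all 10 members, up to 4 called genes per list with the smallest FDR (or, with none called, those of highest CPM), called P450 genes of at least 1 CPM, called neighbours and the 3 genes most like AHR or CYP1A1. Other genes were named after their values were seen: ARNT, SRC, TIPARP, AHRR, ALAS1, NQO1, PPARGC1A, FOXA1, CEBPD, NR1I2, CYP3A4 and HBA2. Libraries of a group differed by 4.39 to 46.8 chi-square per degree of freedom, more than counting noise alone gives, and each was counted as a sample of its own. A called gene of the liver factor list is not reported here.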

Additional observations from a re-analysis of the deposited data

How the results depend on the processing

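Over 15 other settings, and 16 for CYP3A7, CYP1A1 and CYP3A7 kept their call and direction in each. AHR and CYP2S1 each kept theirs in 12 and lost it in 3, all of which left out a library. CYP1B1 kept its call in 10 of 16, and CYP3A5 and CYP2R1 were called in none. CYP3A7 passed the filter on low counts only through the STAT3 shRNA group. Leaving out each library in turn gave 2 to 5 members called higher, 796 to 2068 of all genes higher and 666 to 2030 lower; without control library 1 the counts were largest, and without control library 2, STAT3 shRNA library 1 or STAT3 shRNA library 3 they were smallest. CYP2R1 ran from -0.968 to 0.0749, and its sign turned without control library 2. The cause was not tested.

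The replicate block, with the library number from the titles as a term, gave 1210 genes higher and 1068 lower and the same 5 members called higher, with no member's call changed. Same-numbered libraries correlated in their deviations from the group means at 0.279, 0.191 and -0.227 for numbers 1, 2 and 3. With 3 libraries per group, these values cannot show whether the numbers pair the libraries. Not every library correlated best with its own number. With library totals as the scaling, 6 members were called higher, CYP2U1 in addition. With CYP1B1 and CYP1B1-AS1 summed, 4 were. CYP2R1, CYP2J2 and CYP24A1 are limited by depth.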
